A study of Mus musculus with 36 samples.

Results

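The constitutive proteasome subunits are the genes of the 20S core particle and the 19S regulatory particle that most cell types use. They were chosen by name and not by any measured value: protein-coding genes with a symbol of Psma, Psmb, Psmc or Psmd followed by digits only. The immune subunits Psmb8, Psmb9 and Psmb10, the thymic Psmb11 and the testis subunit Psma8 were left out. The rule found 34 of the 48795 genes in the table, and all 34 passed edgeR's filter on low counts. They are 7 alpha subunits (Psma1 to Psma7), 7 beta subunits (Psmb1 to Psmb7), 6 ATPases (Psmc1 to Psmc6) and 14 non-ATPase proteins of the 19S particle (Psmd1 to Psmd14). The cells were mouse lung pericyte-like cells, expanded from lung digests, depleted of cells with CD31, CD45 or CD326 and then selected for PDGFRβ. They were exposed for 24 or 6 h to injured bronchoalveolar lavage fluid (BALF), to uninjured BALF or to media only, each diluted with the same volume of low-serum medium, with buffered saline in place of BALF in the controls. The 6 groups of treatment and time held 3 female and 3 male libraries each (n = 6), which made 36 libraries. The labels give no strain, age, genotype or kind of injury, and leave the source of the replicates (animals, cultures) unstated. The p-values therefore reflect variation among these libraries, which may be technical.

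The proteasome is a barrel-shaped protease that degrades proteins tagged with ubiquitin. In its 20S core, outer rings of alpha subunits gate the entry and inner rings of beta subunits cut the substrate, with the catalytic sites carried by Psmb5, Psmb6 and Psmb7. The 19S particle recognises the ubiquitin chain (Psmd4 is a receptor), removes it (Psmd14 is the deubiquitinase), and unfolds the substrate with its ring of ATPases, Psmc1 to Psmc6. Psmd5, Psmd9 and Psmd10 are chaperones that help to assemble the ATPase ring and leave it afterwards. Subunit genes are known to be raised together by the transcription factor NRF1 (gene Nfe2l1) when proteasome capacity falls short, and NRF2 (gene Nfe2l2) has been linked to core subunits under oxidative stress.

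Total counts per library ran from 17134840 to 35991683. Pdgfrb, the gene of the selection marker, lay at 256 to 862 CPM (counts scaled to library size, as edgeR's CPM) over the 36 libraries. Medians of other listed pericyte markers were 330 CPM for Cd248, 147 for Mcam, 95.1 for Cspg4 and 44.0 for Des. They were 18.7 CPM for Notch3, 6.67 for Rgs5 and 2.02 for Anpep. The pericyte channel genes Kcnj8 and Abcc9 reached at most 0.480 and 0.642 CPM. The 10 pericyte markers summed to 686 to 2581 CPM and the 8 fibroblast markers to 20521 to 52198 CPM. The fibroblast sum was led by Fn1 and Col1a1, at medians of 13493 and 8542 CPM. Pdgfra, Dcn, Tcf21 and Lum had medians of 110, 49.2, 8.37 and 1.71 CPM. Such sums follow their most abundant genes and do not settle the cell type. The label pericyte-like is used here only as a name. Endothelial markers (8 genes) summed to 7.87 to 179 CPM, leukocyte and macrophage markers (8 genes) to 13.3 to 82.8 and neutrophil markers (6 genes) to 0.348 to 8.98, and Epcam, which defines epithelium, was at 0 in 25 libraries. Female media 24 h replicate 1 stood apart from the other media libraries, with 3.87% of its counts in mitochondrial genes, against at most 2.05% in the other 35. In bulk RNA, more cells of a type and more RNA per cell cannot be told apart.

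Added over all 34 genes, proteasome subunits made up 4209 to 5121 CPM in injured BALF at 24 h and 4516 to 5238 CPM in injured BALF at 6 h. In uninjured BALF they made up 3896 to 4552 CPM at 24 h and 4261 to 5227 CPM at 6 h, and in media 3009 to 4158 CPM at 24 h and 3975 to 4426 CPM at 6 h. All 6 injured libraries at 24 h and all 6 at 6 h lay above every media library of the same time, while the injured and uninjured ranges overlapped at both times. The means were 4612 ± 368 CPM (± SD, n = 6) in injured BALF, 4170.4 ± 248.9 in uninjured BALF and 3749 ± 462 in media at 24 h. At 6 h they were 4821 ± 327 CPM in injured BALF, 4822 ± 353 in uninjured BALF and 4244 ± 155 in media. The lowest sum, 3009 CPM, belonged to female media 24 h replicate 1, where 31 of the 34 genes lay below their own mean over all libraries. In female and in male injured BALF 6 h replicate 3, by contrast, none of the 34 did.

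**Figure D1:**
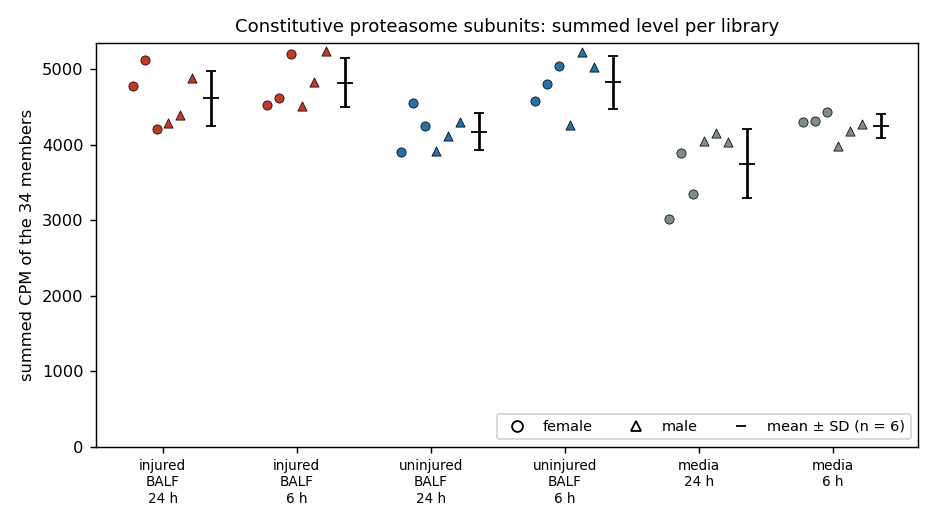
Summed CPM of the 34 subunit genes (vertical axis) in every library of the 6 groups of treatment and time (horizontal axis). Circles are female and triangles male libraries, and the bar beside each group is its mean ± SD (n = 6). The injured libraries lie between 4209 and 5238 CPM, above the media libraries of the same time, and the lowest point is female media 24 h replicate 1 at 3009 CPM.

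Levels per length were counts per kilobase of merged exons, scaled to the same total over protein-coding genes and averaged over the 36 libraries. With the assembly chaperones left aside, they differed between subunits that stand in equal numbers in the complex, from 77.2 for Psmd11 to 426 for Psmd8. Psmd8, a lid component, had the highest level per length at 426, followed by Psma6 at 387 and Psmd2, a scaffold of the base, at 381. The catalytic subunits had levels per length of 217 for Psmb6, 207 for Psmb5 and 133 for Psmb7, at ranks 12, 13 and 24 of 34. The assembly chaperones closed the order, with 74.0 for Psmd10, 58.6 for Psmd5 and 16.3 for Psmd9. With the longest transcript in place of merged exons Psmd8 was again first and Psmd9 last, but most ranks between them depended on the length used: Psmb6, Psmb5 and Psmb7 came at ranks 5, 24 and 30, and Psma6 and Psmd2 exchanged places, as did Psmd10 and Psmd5.

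The subunits that cut the substrate, recognise its ubiquitin chain or remove it were followed through all 6 groups. Psmb5, which carries the chymotrypsin-like site, lay at 46.9 to 54.8 CPM (median 52.3) in injured BALF, 43.8 to 49.3 CPM (median 45.8) in uninjured BALF and 21.1 to 47.3 CPM (median 44.0) in media at 24 h, and at 45.2 to 58.0 CPM (median 48.5) in injured BALF, 43.7 to 56.9 CPM (median 50.9) in uninjured BALF and 39.8 to 46.9 CPM (median 46.0) in media at 6 h. Psmb6, with the caspase-like site, lay at 95.3 to 125 CPM (median 113) in injured BALF, 90.7 to 111 CPM (median 99.6) in uninjured BALF and 60.0 to 99.5 CPM (median 93.1) in media at 24 h, and at 96.7 to 126 CPM (median 107) in injured BALF, 96.7 to 117 CPM (median 112) in uninjured BALF and 88.9 to 100.5 CPM (median 97.1) in media at 6 h. Psmb7, with the trypsin-like site, lay at 114 to 138 CPM (median 119) in injured BALF, 104 to 119 CPM (median 110.2) in uninjured BALF and 58.2 to 113 CPM (median 109) in media at 24 h, and at 106 to 135 CPM (median 124) in injured BALF, 112 to 136 CPM (median 127) in uninjured BALF and 102 to 118 CPM (median 110.1) in media at 6 h. For these 3 the lowest of the 36 libraries was female media 24 h replicate 1, and the medians of injured and uninjured BALF lay above those of media at both times. The receptor Psmd4 lay at 107 to 131 CPM (median 115) in injured BALF, 104 to 120.4 CPM (median 114) in uninjured BALF and 72.3 to 114 CPM (median 107) in media at 24 h, and at 104 to 127 CPM (median 112) in injured BALF, 103 to 138 CPM (median 124) in uninjured BALF and 98.6 to 116 CPM (median 111) in media at 6 h. The deubiquitinase Psmd14 lay at 102 to 139 CPM (median 119) in injured BALF, 97.7 to 123 CPM (median 108) in uninjured BALF and 71.3 to 108 CPM (median 95.1) in media at 24 h, and at 134 to 158 CPM (median 143) in injured BALF, 122 to 155 CPM (median 145) in uninjured BALF and 114 to 141 CPM (median 119.8) in media at 6 h. At 6 h each of the 5 overlapped between injured and uninjured BALF.

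Setting injured against uninjured BALF addresses what injury adds to lavage fluid. Psma6, an alpha subunit, and Psmd10, the assembly chaperone also known as gankyrin, were higher in injured BALF at both times, and no other subunit passed the test at either. At 24 h, Psmd10 lay at 33.98 to 38.7 CPM (median 36.6) in injured and 23.6 to 28.4 CPM (median 24.3) in uninjured BALF. All 6 injured libraries were above all 6 uninjured ones, at a log2 fold change of 0.53 ± 0.08 (adjusted p = 0.00013); here and below, ± on a fold change is its standard error and p-values are from edgeR's quasi-likelihood test, adjusted over all genes. Psma6 lay at 122 to 148.2 CPM (median 139) in injured and 93.4 to 116 CPM (median 98.0) in uninjured BALF at 24 h, again without overlap, with a log2 fold change of 0.42 ± 0.09 (adjusted p = 0.0055). At 6 h, Psma6 lay at 164 to 204 CPM (median 175) in injured and 94.4 to 142 CPM (median 122) in uninjured BALF. The groups did not overlap, and the log2 fold change was 0.57 ± 0.09 (adjusted p = 0.00018). Psmd10 lay at 29.3 to 36.3 CPM (median 33.0) in injured and 23.4 to 29.6 CPM (median 26.6) in uninjured BALF at 6 h. These groups overlapped slightly, with a log2 fold change of 0.32 ± 0.08 (adjusted p = 0.015). That last call rested on single libraries: the adjusted p was 0.059 without male injured BALF 6 h replicate 2, 0.065 without female uninjured BALF 6 h replicate 2 and 0.053 without male uninjured BALF 6 h replicate 3.

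Marker sums differed in the same comparison. At 24 h the 6 neutrophil markers summed to 5.35 to 8.98 CPM (median 7.07) in injured and 0.762 to 4.74 CPM (median 2.45) in uninjured BALF, without overlap, and the 10 pericyte markers to 686 to 1015 CPM (median 855) in injured and 988 to 1542 CPM (median 1287) in uninjured BALF, nearly apart. At 6 h both lists overlapped between the treatments, with neutrophil markers at 1.33 to 4.12 CPM (median 2.66) in injured and 0.733 to 2.49 CPM (median 1.75) in uninjured BALF and pericyte markers at 773 to 1280.4 CPM (median 1188) in injured and 1041 to 1451 CPM (median 1291) in uninjured BALF. The neutrophil sum rested mainly on S100a8, Mmp8 and Camp, which reached at most 5.06, 5.14 and 1.66 CPM. S100a9, Ngp and Ly6g were at 0 in 25, 32 and 35 of the 36 libraries. The part of both lists in the Psma6 and Psmd10 results was not tested.

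The other 32 subunits did not pass the test at either time. Over all genes tested, 4.42% were called in either direction at 24 h, 2.38% upward, and 3.43% at 6 h, 1.97% upward. The subunits called were 2 of 34 (5.88%) at each time, both upward, too few to tell from those upward shares. The calls concern these 2 genes, and a change of the complex as a whole was not tested. An unadjusted p under 0.05 was reached by 10 subunits at 24 h and 3 at 6 h, beside 2715 and 2120 of the 15901 genes tested. At 24 h all 34 fold changes were above 0, with a median log2 fold change of 0.14 over the subunits beside 0.00 over all genes. At 6 h 14 were above and 20 below 0, with a median of -0.01. These signs are not independent, since the subunits varied together among libraries. With group means removed, a subunit's correlation with the mean of the others had a median of 0.84 (range -0.07 to 0.97). The catalytic subunit Psmb5 lay at 46.9 to 54.8 CPM (median 52.3) in injured and 43.8 to 49.3 CPM (median 45.8) in uninjured BALF at 24 h, with overlapping groups and a log2 fold change of 0.15 ± 0.11 (adjusted p = 0.54). The deubiquitinase Psmd14 gave 0.15 ± 0.08 (adjusted p = 0.34) and the receptor Psmd4 0.04 ± 0.08 (adjusted p = 0.88). For each of the 34 genes the difference between the 24 h and the 6 h effect was tested. Of these 0 passed, beside 0.239% of all genes. At an unadjusted p under 0.05 there were 4, beside 1236 of the 15901 genes tested. DESeq2 also called 0, and the lowest adjusted p was 0.29, for Psmd5. Of all genes 24 were higher and 14 lower in that test with TMM scaling, and 18 and 17 with upper-quartile scaling.

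The promoters of the genes on which the treatment results turn are shown, together with those of the catalytic subunits Psmb5 and Psmb6, whose windows hold the motif of the NRF factors. Each is the 120 bases before an annotated transcription start, 5′ to 3′ on the gene's strand, from RefSeq on GRCm38.p6, and Psma6 has a pair of annotated starts in the same gene. Capitals mark the motifs that were found: TGACNNNGC, the core of the antioxidant response element, in Psmb5 and Psmb6; CCAAT, or ATTGG where it reads on the opposite strand, in Psmd10 and at the upstream start of Psma6; and the NF-kB motif in Psmd11 and at the downstream start of Psma6. The windows lie at chr12:55398705-55398824 (plus strand) and chr12:55384102-55384221 (plus strand) for Psma6, chrX:140956712-140956831 (minus strand) for Psmd10, chr11:80428495-80428614 (plus strand) for Psmd11, chr14:54617996-54618115 (minus strand) for Psmb5 and chr11:70525237-70525356 (plus strand) for Psmb6.
Psma6, downstream start: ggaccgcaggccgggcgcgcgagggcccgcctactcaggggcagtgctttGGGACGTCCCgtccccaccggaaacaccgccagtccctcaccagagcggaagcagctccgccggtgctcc
Psma6, upstream start: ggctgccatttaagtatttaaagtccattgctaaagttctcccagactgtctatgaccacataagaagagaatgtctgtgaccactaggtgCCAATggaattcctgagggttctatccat
Psmd10: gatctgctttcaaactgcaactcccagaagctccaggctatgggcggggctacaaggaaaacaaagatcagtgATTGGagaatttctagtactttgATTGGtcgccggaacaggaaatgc
Psmd11: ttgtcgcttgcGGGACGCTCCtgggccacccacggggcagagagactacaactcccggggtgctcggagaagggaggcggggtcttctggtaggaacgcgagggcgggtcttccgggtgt
Psmb5: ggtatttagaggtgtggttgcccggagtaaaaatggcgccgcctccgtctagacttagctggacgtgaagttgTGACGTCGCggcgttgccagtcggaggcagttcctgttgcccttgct
Psmb6: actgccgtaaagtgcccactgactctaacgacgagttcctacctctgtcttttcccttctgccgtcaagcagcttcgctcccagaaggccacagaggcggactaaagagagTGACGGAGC

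Promoter windows were at hand for 28 of the 34 genes, and 250 bases before the start were searched on both strands. TGACNNNGC was found in 5 of the 28 (17.9%), namely Psmb5, Psmb6, Psmc6, Psmd9 and Psmd12, and in 11.5% of the 27025 genes with a window. CCAAT was found in 11 (39.3%), against 37.5% of all genes, and the NF-kB motif in 7 (25.0%), against 25.6%. The NF-kB search was added after the values of Psma6 had been seen. The shares of CCAAT and of the NF-kB motif in the subunits are near those of all genes, and a match is letters in a window, not a bound site.

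**Figure D2:**
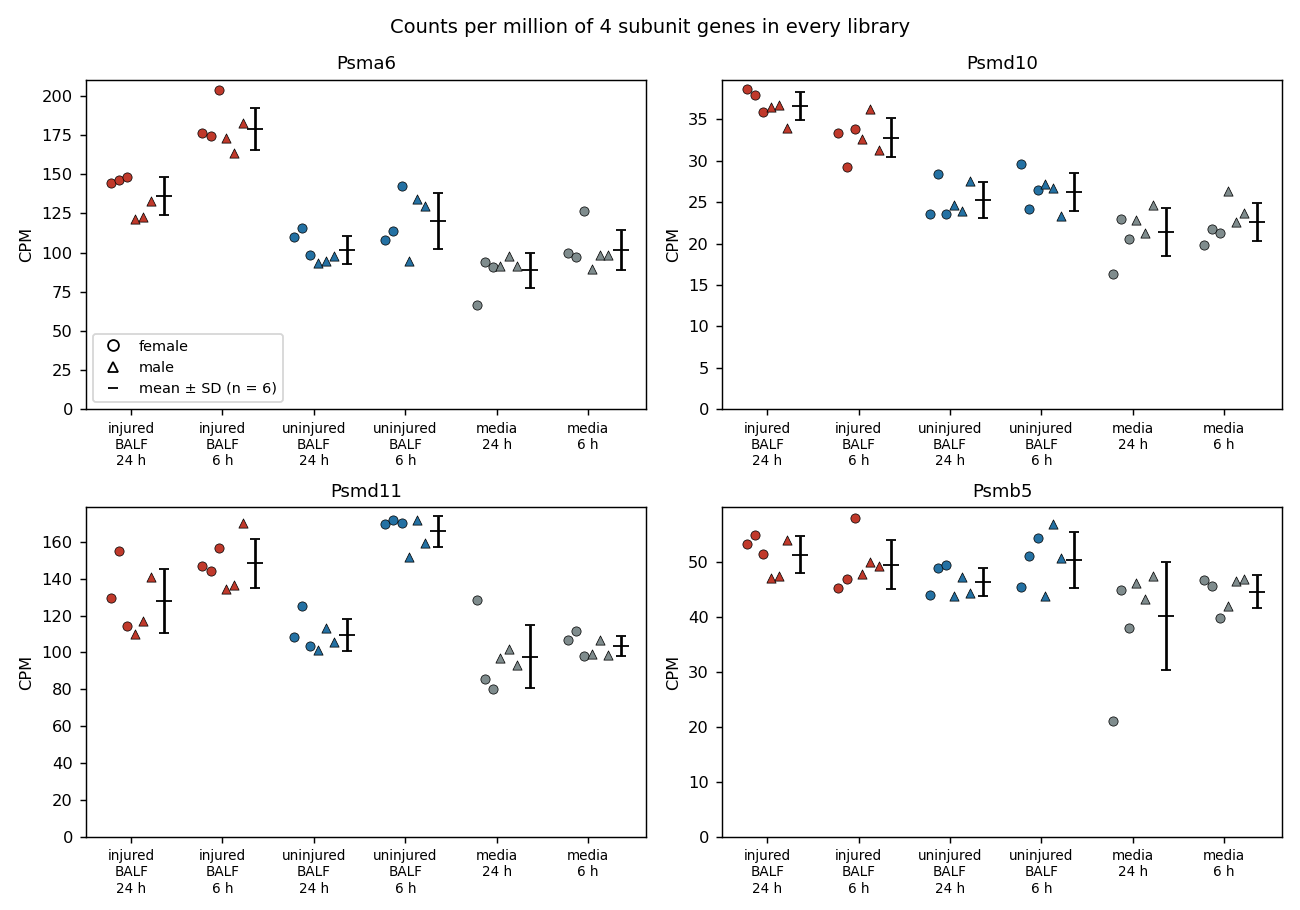
CPM (vertical axes, from 0) of Psma6, Psmd10, Psmd11 and Psmb5 in every library of the 6 groups (horizontal axes). Circles are female and triangles male libraries, with the mean ± SD (n = 6) beside them. Psma6 and Psmd10 separate injured BALF from both other treatments at 24 h, Psmd11 stands highest in uninjured BALF at 6 h, and Psmb5 overlaps between treatments apart from the low female media 24 h replicate 1.

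Injured BALF against media at 24 h gave the broadest change. Of the 34 subunits, 27 (79.4%) were higher in injured BALF and 0 lower, where over all genes 23.7% were called and 11.5% were higher. The median log2 fold change was 0.31 over the subunits and -0.01 over all genes. All 7 alpha subunits, 5 of 7 beta subunits, 5 of 6 ATPases and 10 of 14 non-ATPase subunits rose. Psmb1, Psmb2, Psmc3, Psmd4, Psmd6, Psmd8 and Psmd9 did not pass the test, at log2 fold changes of 0.05 for Psmb2 to 0.20 for Psmd4. Of the 27 calls, 18 held whichever of the 12 libraries was left out. A fit of the compared groups alone called 12, namely Psma1, Psma4, Psma6, Psma7, Psmc4, Psmd1, Psmd2, Psmd5, Psmd7, Psmd10, Psmd12 and Psmd14. It ended the calls of all 5 beta subunits, with adjusted p-values from edgeR of 0.11 for Psmb5 and 0.1 for Psmb6 and Psmb7, and those of Psma5 (0.062) and Psmd11 (0.071). Without female media 24 h replicate 1 alone, 22 subunits were called and the median log2 fold change was 0.24.

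In the core, Psma6 lay at 122 to 148.2 CPM (median 139) in injured BALF and 66.1 to 98.0 CPM (median 91.6) in media at 24 h, with no overlap and a log2 fold change of 0.62 ± 0.09 (adjusted p = 1.4e-05). Psma5 lay at 72.9 to 104 CPM (median 90.7) in injured BALF and 24.0 to 69.6 CPM (median 65.9) in media, where the media minimum of 24.0 CPM was female replicate 1 and the other 5 media libraries reached 61.8 to 69.6 CPM. Its log2 fold change of 0.60 ± 0.15 (adjusted p = 0.0039) came to 0.43 without that library. Among the catalytic subunits, Psmb5 lay at 46.9 to 54.8 CPM (median 52.3) in injured BALF and 21.1 to 47.3 CPM (median 44.0) in media, overlapping, with 0.37 ± 0.11 (adjusted p = 0.015). Psmb7 lay at 114 to 138 CPM (median 119) in injured BALF and 58.2 to 113 CPM (median 109) in media. Its groups did not overlap, and the log2 fold change was 0.34 ± 0.10 (adjusted p = 0.0099). Psmb6 lay at 95.3 to 125 CPM (median 113) in injured BALF and 60.0 to 99.5 CPM (median 93.1) in media, overlapping, with 0.32 ± 0.09 (adjusted p = 0.01). The structural beta subunit Psmb3 rose by 0.39 ± 0.12 (adjusted p = 0.02), but lost the call without each of 2 libraries. Psmb2, by contrast, lay at 78.8 to 96.4 CPM (median 84.4) in injured BALF and 66.5 to 123 CPM (median 77.1) in media, and the media maximum was again female replicate 1, the library with the lowest Psmb5.

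In the 19S particle, Psmd10 had the highest fold change of all subunits, with 33.98 to 38.7 CPM (median 36.6) in injured BALF and 16.3 to 24.7 CPM (median 22.1) in media at 24 h, no overlap, and 0.78 ± 0.08 (adjusted p = 7.2e-08). The chaperone Psmd5 lay at 84.9 to 134 CPM (median 115) in injured BALF and 63.0 to 106 CPM (median 87.4) in media, overlapping, at 0.43 ± 0.10 (adjusted p = 0.0022). The scaffold Psmd2 lay at 396 to 486 CPM (median 427) in injured BALF and 198 to 383 CPM (median 346) in media, apart, at 0.42 ± 0.09 (adjusted p = 0.0015). Among the ATPases, Psmc4 lay at 119 to 146 CPM (median 127) in injured BALF and 86.7 to 115 CPM (median 108) in media, apart, at 0.34 ± 0.08 (adjusted p = 0.0023), while Psmc2 reached 0.27 ± 0.10 (adjusted p = 0.045) and lost the call without each of 7 libraries. Psmd14 lay at 102 to 139 CPM (median 119) in injured BALF and 71.3 to 108 CPM (median 95.1) in media, overlapping, at 0.40 ± 0.08 (adjusted p = 0.00061). The ubiquitin receptor Psmd4 lay at 107 to 131 CPM (median 115) in injured BALF and 72.3 to 114 CPM (median 107) in media, at 0.20 ± 0.08 (adjusted p = 0.068). Psmd9, another chaperone, gave 0.06 ± 0.07 (adjusted p = 0.63).

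Marker sums moved with this comparison too. The 10 pericyte markers summed to 686 to 1015 CPM (median 855) in injured BALF and 1340.5 to 2581 CPM (median 1603) in media at 24 h, without overlap. The 6 neutrophil markers summed to 5.35 to 8.98 CPM (median 7.07) in injured BALF and 0.348 to 1.89 CPM (median 0.910) in media, also without overlap. Of these, S100a9, Ngp and Ly6g were at 0 in 25, 32 and 35 of the 36 libraries. The 6 proliferation genes summed to 693 to 871 CPM (median 758) in injured BALF and 623 to 799 CPM (median 665) in media, overlapping. Their part in the subunit result was not tested.

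**Figure D3:**
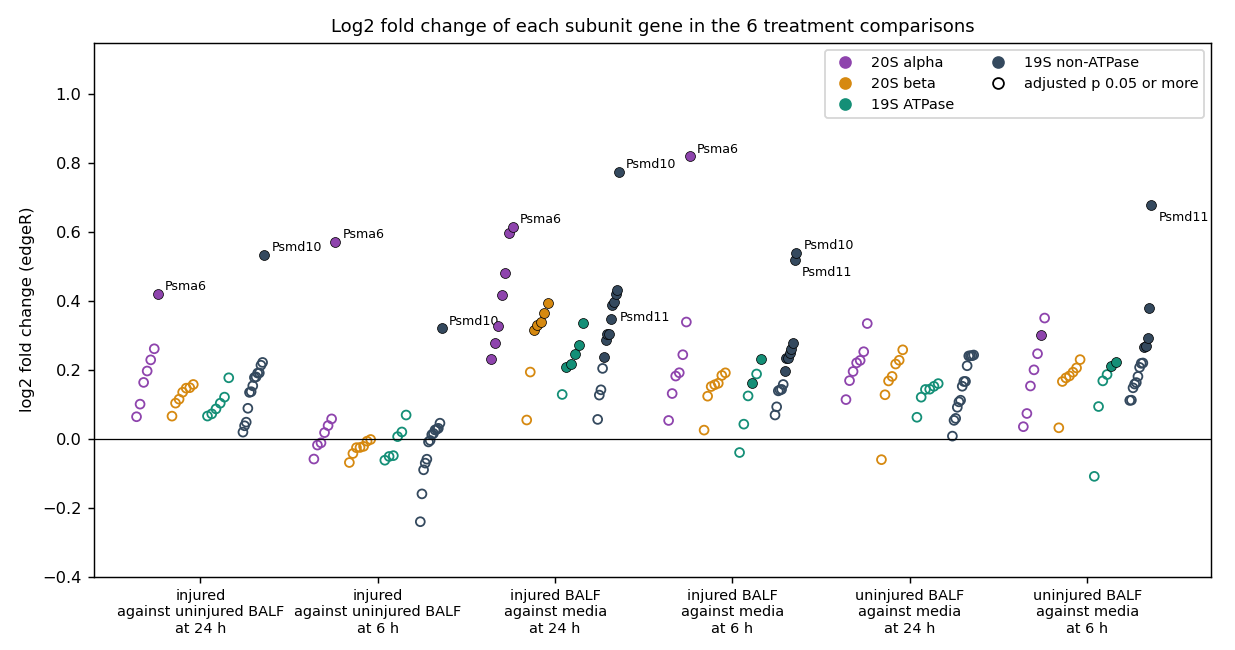
Log2 fold change (vertical axis) of each of the 34 subunit genes in the 6 treatment comparisons (horizontal axis), coloured by role. Filled points passed edgeR's test at an adjusted p under 0.05 and open ones did not, and Psma6, Psmd10 and Psmd11 are named where they passed. Filled points fill the column of injured BALF against media at 24 h (27 of 34), whereas injured against uninjured BALF has Psma6 and Psmd10 only and uninjured BALF against media at 24 h has none.

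At 6 h, 11 subunits (32.4%) were higher in injured BALF than in media and 0 lower, where 25.2% of all genes were called and 13.9% were higher. They were 8 non-ATPase subunits, the ATPases Psmc4 and Psmc5, and Psma6; the median log2 fold change was 0.17. With upper-quartile scaling 4 subunits were called, and the split over all genes turned to 1786 higher and 2286 lower, against 2203 and 1808 with TMM scaling. Psma6 lay at 164 to 204 CPM (median 175) in injured BALF and 89.3 to 127 CPM (median 98.6) in media, apart, at 0.82 ± 0.09 (adjusted p = 1.4e-07), its highest fold change in any comparison. Psmd10 lay at 29.3 to 36.3 CPM (median 33.0) in injured BALF and 19.9 to 26.4 CPM (median 22.2) in media, apart, at 0.54 ± 0.08 (adjusted p = 7.2e-06). Psmd11, a lid subunit, lay at 134 to 170.3 CPM (median 146) in injured BALF and 98.0 to 111 CPM (median 103) in media, apart, at 0.52 ± 0.09 (adjusted p = 0.00014). The lid subunit Psmd7 reached 0.28 ± 0.08 (adjusted p = 0.011) and Psmd9 0.26 ± 0.07 (adjusted p = 0.0096), and these 5 held whichever library was left out. Psmc4 at 0.23 ± 0.08 (adjusted p = 0.032) and Psmc5 at 0.16 ± 0.06 (adjusted p = 0.039) did not hold without each of 7 and 8 libraries. The 6 proliferation genes summed to 297 to 658 CPM (median 593) in injured BALF and 588 to 706 CPM (median 657) in media at 6 h, and the pericyte markers to 773 to 1280.4 CPM (median 1188) in injured BALF and 1089 to 1910.3 CPM (median 1705) in media, both overlapping. Their part was not tested. No beta subunit passed, with Psmb5 at 0.15 ± 0.11 (adjusted p = 0.34). The ATPase Psmc6 alone lay below 0, at -0.04 ± 0.07 (adjusted p = 0.74). The count fell to 5 without female or male injured BALF 6 h replicate 3 or male media 6 h replicate 1, to 6 without female media 6 h replicate 1, and to 7 without female media 6 h replicate 2 or male media 6 h replicate 3.

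Uninjured BALF against media is the comparison for lavage fluid in the absence of injury. At 6 h, 8 subunits (23.5%) were higher in uninjured BALF and 0 lower, where 18.4% of all genes were called and 10.6% were higher. Psmd11 led them: it lay at 152 to 172 CPM (median 169.7) in uninjured BALF and 98.0 to 111 CPM (median 103) in media, far apart, at 0.68 ± 0.09 (adjusted p = 9.9e-06). Psmd5 lay at 119.98 to 142 CPM (median 132) in uninjured BALF and 94.5 to 106 CPM (median 101) in media, apart, at 0.38 ± 0.10 (adjusted p = 0.0079). The lid subunit Psmd3 reached 0.29 ± 0.08 (adjusted p = 0.01), Psmd9 0.27 ± 0.07 (adjusted p = 0.01) and the ATPase Psmc5 0.21 ± 0.06 (adjusted p = 0.01), and these 5 calls held whichever library was left out. Psma7 at 0.30 ± 0.09 (adjusted p = 0.024) and Psmd7 at 0.27 ± 0.08 (adjusted p = 0.021) lost the call without each of 3 libraries, and Psmc4 at 0.22 ± 0.08 (adjusted p = 0.047) without each of 8. Psma6 lay at 94.4 to 142 CPM (median 122) in uninjured BALF and 89.3 to 127 CPM (median 98.6) in media, overlapping, at 0.25 ± 0.09 (adjusted p = 0.058), and Psmd10 gave 0.22 ± 0.08 with an adjusted p of 0.0504, just above the threshold. In the same comparison the proliferation genes summed to 276 to 590.4 CPM (median 515) in uninjured BALF and 588 to 706 CPM (median 657) in media, nearly apart, and the pericyte markers to 1041 to 1451 CPM (median 1291) in uninjured BALF and 1089 to 1910.3 CPM (median 1705) in media, overlapping. Their part was not tested. Psmc6 again ran against the rest, at -0.11 ± 0.07 (adjusted p = 0.34). With upper-quartile scaling 3 subunits were called, and 1346 of all genes were higher and 1642 lower, against 1679 and 1244 with TMM scaling. The count was 13 without male uninjured BALF 6 h replicate 1 and 5 without male uninjured BALF 6 h replicate 2. With replicate number as a block it was 13.

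At 24 h, 0 subunits passed between uninjured BALF and media in edgeR and 0 in DESeq2, in a comparison that called 0.868% of all genes. At an unadjusted p under 0.05 there were 12, beside 1793 of the 15901 genes tested. Of the 34 fold changes 33 were above 0, with a median of 0.17 beside -0.004 over all genes. Without female media 24 h replicate 1 the count was again 0. Psmd11 lay at 101 to 125 CPM (median 107) in uninjured BALF and 80.2 to 128 CPM (median 94.99) in media, overlapping, at 0.17 ± 0.09 (adjusted p = 0.54). Psma5 had the highest fold change, 0.33 ± 0.15 (adjusted p = 0.38), with the low female media replicate 1 among its media values. Psmb2 was the 1 gene below 0, at -0.06 ± 0.10 (adjusted p = 0.89). The Psmd11 effect was smaller at 24 h than at 6 h by 0.51 ± 0.13 (adjusted p = 0.038) on the log2 scale, the 1 call among 34 beside 1.96% of all genes, 1.27% downward, in that test of the difference. With upper-quartile scaling 0 subunits passed, and the calls over all genes split into 151 higher and 154 lower, against 110 and 202 with TMM. The call rested on single libraries: 16 of the 24 libraries, left out singly, ended the call, 9 of them uninjured and 7 media libraries. Over all 24 the difference ran from -0.57 to -0.39, with adjusted p up to 0.080, and the smallest, -0.39 (adjusted p = 0.049), was without female media 24 h replicate 1.

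Between the times, subunits were lower at 24 h than at 6 h in every treatment where they passed the test, apart from 1 that was higher in injured BALF with upper-quartile scaling. In uninjured BALF 14 of 34 (41.2%) fell and 0 rose, where 30.7% of all genes were called and 15.5% fell. With upper-quartile scaling 7 fell, and 3112 of all genes were higher and 1896 lower, against 2418 and 2463 with TMM scaling. Psmd11 fell most, to 101 to 125 CPM (median 107) at 24 h, against 152 to 172 CPM (median 169.7) at 6 h, apart, at -0.60 ± 0.09 (adjusted p = 2.9e-05). Psmd5 followed at -0.39 ± 0.10 (adjusted p = 0.0041), Psmd7 at -0.39 ± 0.08 (adjusted p = 0.00063), Psmd14 at -0.37 ± 0.08 (adjusted p = 0.00085) and Psmd12 at -0.33 ± 0.08 (adjusted p = 0.0022). Psmc5 gave -0.22 ± 0.06 (adjusted p = 0.0047), its 24 h and 6 h groups lying apart. Of the 14, 9 are non-ATPase, 3 ATPase and 2 alpha subunits, and 8 held whichever library was left out. Without female uninjured BALF 24 h replicate 1 the count was 8, and it was 9 without each of female uninjured BALF 24 h replicate 3, female uninjured BALF 6 h replicate 3, male uninjured BALF 24 h replicates 1 and 2, and male uninjured BALF 6 h replicates 2 and 3.

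In injured BALF 4 subunits (11.8%) fell and 0 rose, where 27% of all genes were called and 14.2% fell, a share of fallen genes close to the background. The median log2 fold change over the subunits was -0.04 with TMM and 0.02 with upper-quartile scaling, with which 1 fell, 1 rose, and 2466 of all genes were higher and 1809 lower, against 2032 and 2263 with TMM. Psma6 lay at 122 to 148.2 CPM (median 139) at 24 h and 164 to 204 CPM (median 175) at 6 h, apart, at -0.40 ± 0.09 (adjusted p = 0.0016). Psmd14 gave -0.24 ± 0.08 (adjusted p = 0.024), Psmd6 -0.26 ± 0.10 (adjusted p = 0.042) and Psmd9 -0.24 ± 0.07 (adjusted p = 0.018). Psmd10 stayed above 0, at 0.16 ± 0.08 (adjusted p = 0.13). The count was 1 without female injured BALF 24 h replicate 3, female injured BALF 6 h replicate 3 or male injured BALF 24 h replicate 1, and 2 without male injured BALF 24 h replicate 2 or male injured BALF 6 h replicates 2 or 3. In media 3 subunits (8.82%) fell and 0 rose, where 6.84% of all genes were called and 3.33% fell. Psmd14 lay at 71.3 to 108 CPM (median 95.1) at 24 h and 114 to 141 CPM (median 119.8) at 6 h in media, apart, at -0.41 ± 0.08 (adjusted p = 0.0042), while Psmc6 gave -0.28 ± 0.07 (adjusted p = 0.023) and Psmd1 -0.26 ± 0.07 (adjusted p = 0.028). The media count was 4 without female media 24 h replicate 1, 10 without female media 24 h replicate 2 and 1 without male media 24 h replicate 3 or male media 6 h replicate 2. Summed proliferation markers were 583 to 837 CPM (median 671) at 24 h and 276 to 590.4 CPM (median 515) at 6 h in uninjured BALF. In injured BALF they were 693 to 871 CPM (median 758) at 24 h and 297 to 658 CPM (median 593) at 6 h. Their part was not tested.

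**Figure D4:**
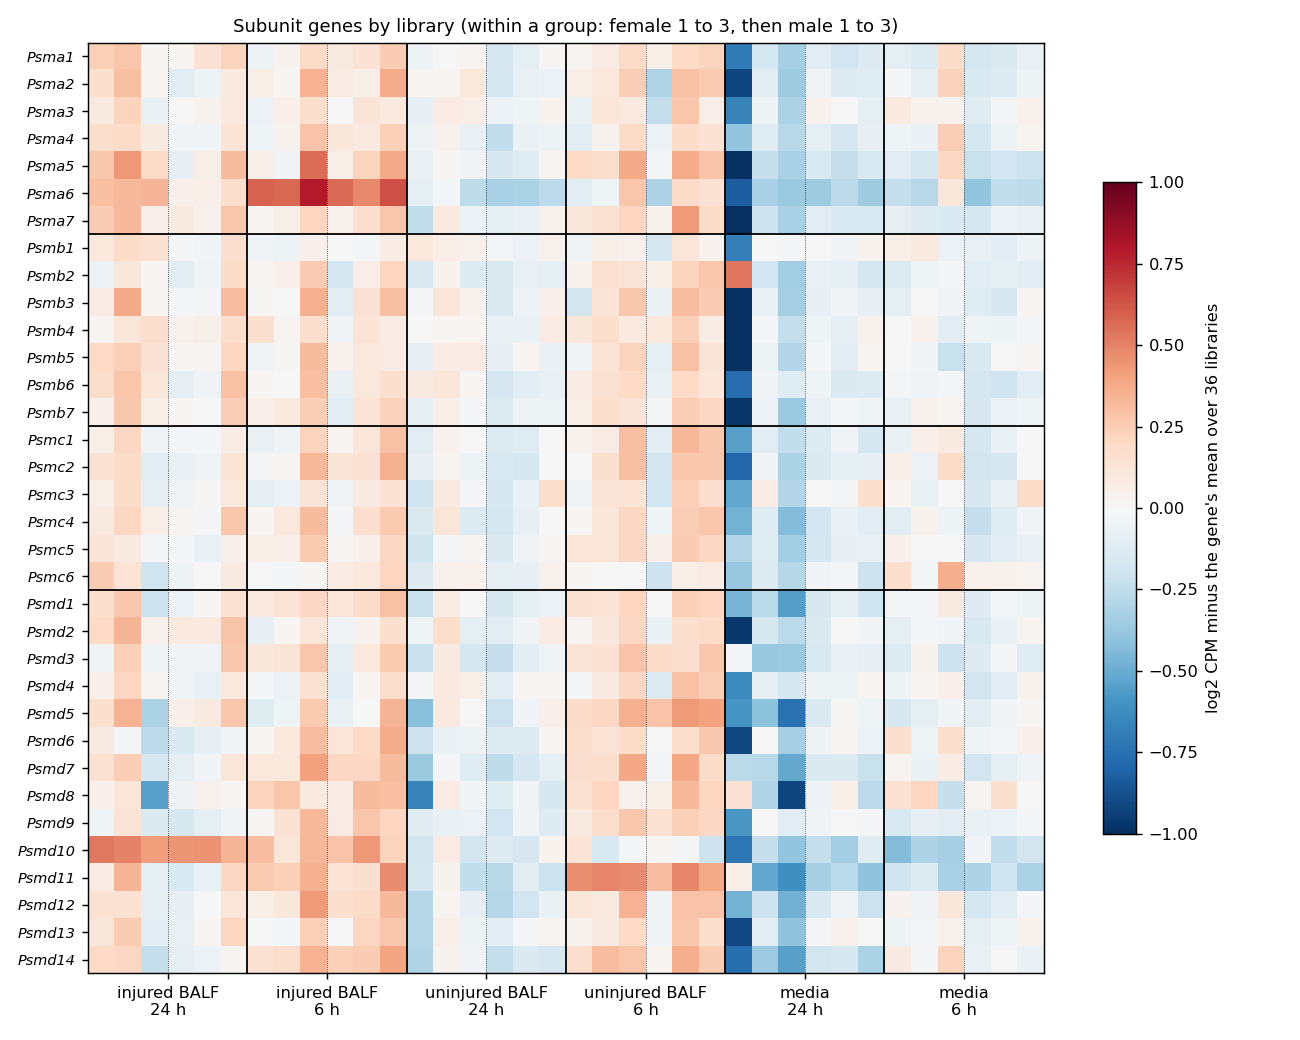
Log2 CPM of each subunit gene (rows, from alpha through beta and ATPase to non-ATPase) in each library (columns, by treatment and time) minus the gene's mean over the 36 libraries, with colours clipped at 1 on either side. The column of female media 24 h replicate 1 is blue in 31 of 34 rows, and the rows of Psma6, Psmd10, Psmd11, Psmb2 and Psmd8 differ from their neighbours.

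The genes around the proteasome were read from fixed lists. Nfe2l1, the known regulator of subunit genes, was not called in any treatment comparison: it lay at 485 to 559.9 CPM (median 534) in injured BALF and 488 to 614 CPM (median 533) in media at 24 h, with -0.04 ± 0.10 (adjusted p = 0.83). NRF1 is controlled chiefly through its protein, which was not measured. Nfe2l2 rose in injured against uninjured BALF at 24 h, with 178 to 222 CPM (median 185) against 112 to 203 CPM (median 129.7), overlapping, and a log2 fold change of 0.39 ± 0.11 (adjusted p = 0.036). Against media it rose in injured BALF by 0.57 ± 0.11 (adjusted p = 0.00037) at 24 h and 0.74 ± 0.11 (adjusted p = 1.1e-05) at 6 h, and in uninjured BALF by 0.51 ± 0.11 (adjusted p = 0.0015) at 6 h. Of 16 NRF2 target genes, 14 rose in injured BALF against media at 24 h, where 11.5% of all genes were higher. At 6 h 8 rose and 1 fell, where 13.9% of all genes were higher. In uninjured BALF against media 13 rose at 6 h, where 10.6% of all genes were higher. At 24 h 4 rose, beside 82 of the 15901 genes tested. Hmox1, the haem oxygenase, had a log2 fold change of 2.61 ± 0.33 (adjusted p = 1.4e-06) at 24 h in injured BALF and 3.55 ± 0.34 (adjusted p = 7.1e-08) at 6 h in uninjured BALF. In injured against uninjured BALF at 6 h, 6 of the 16 were lower and 0 higher, beside 232 lower and 314 higher of the 15901 genes tested. Among the 6 was the glutamate-cysteine ligase subunit Gclc at -1.04 ± 0.25 (adjusted p = 0.014). The part of these genes in the subunit results was not tested.

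Among 7 assembly and biogenesis genes, the core chaperone Pomp rose in injured BALF against media by 0.34 ± 0.10 (adjusted p = 0.01) at 24 h and by 0.26 ± 0.10 (adjusted p = 0.046) at 6 h, and Psmg3 by 0.66 ± 0.16 (adjusted p = 0.0031) at 6 h, while Psmg1, Psmg2 and Psmg4 did not pass. Of 10 further 19S subunits and associated factors, 3 rose and 1 fell in injured BALF against media at 24 h. Over all 15901 genes tested, 1834 rose and 1940 fell there. Among the 3 was Uchl5, a deubiquitinase of the base, at 0.39 ± 0.11 (adjusted p = 0.0084). In injured BALF against media at 6 h 3 rose and 0 fell, where 13.9% of all genes were higher. Among them was the receptor Adrm1, at 0.31 ± 0.11 (adjusted p = 0.034). In uninjured BALF against media at 6 h Adrm1 was the 1 that rose, at 0.43 ± 0.11 (adjusted p = 0.0054), where 10.6% of all genes were higher. The immune subunits stayed low: Psmb8 lay at 1.35 to 8.82 CPM (median 4.41) in injured BALF and 0.813 to 4.23 CPM (median 2.38) in media at 24 h, Psmb10 at 11.7 to 18.3 CPM (median 14.3) in injured BALF and 7.61 to 14.5 CPM (median 13.7) in media, and Psmb9 at 1.12 CPM or less in every library. Psmb10 rose in injured BALF against media at 6 h, by 0.39 ± 0.14 (adjusted p = 0.033). Of the 5 activator and inhibitor genes, Psme4 rose in injured BALF against media at 24 h by 0.37 ± 0.09 (adjusted p = 0.0025) and Psme3 at 6 h by 0.53 ± 0.14 (adjusted p = 0.0043), while Psme1 and Psme2, which interferon induces, did not pass.

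The counting could blur some values. For 9 of the 34 genes, 15 near-identical copies (at least 95% identity over at least 300 bases) are annotated, and the copies the table lists held at most 3.23% of their gene's counts each, a share reached for Psmb5. Psma6 and Psmd10 have none, and the copy of Psmd11 held 1.45%. Psmb7 overlaps Nek6 on the opposite strand. The library kit keeps strand, but no source used here tells whether counting used it. No annotated gene overlaps Psmd10 or Psmd11.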

How the data were processed

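RNA from cultured mouse lung pericyte-like cells (6 groups of treatment and time, 6 libraries each) was sequenced with a stranded mRNA kit, per the labels' protocols. The authors deposited counts per gene as whole numbers, for 48795 Ensembl identifiers and 36 libraries. STAR 2.5.2b, RSEM 1.2.31, DESeq2 and GRCm38 are named, per the submitters' processing notes, without their roles, so the counts may be rounded RSEM estimates in which reads that fit several genes are shared. Total counts ran from 17134840 to 35991683. The number of libraries, more than counting error, limits the precision.

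Identifiers were matched to GENCODE M21, and 48435 (99.26%) matched; the rest held at most 0.0108% of a library's counts. Counts were tested with edgeR 4.0.16 (quasi-likelihood test, TMM scaling) in R 4.3.3, on all libraries, grouped into the 12 combinations of treatment, sex and time, after edgeR's low-count filter, which left 15901 genes. A treatment effect averages the effects in females and males, and a gene was called at a Benjamini-Hochberg adjusted p under 0.05 over all genes tested. Standard errors were taken as fold change over the root of the F statistic. CPM used the TMM-scaled library sizes. The fit was tested on simulated counts. Tests were compared with DESeq2 1.42.0, other scalings, no filter, a stricter threshold, replicate blocks, smaller sets of libraries and each library left out.

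The members and gene lists were chosen with earlier results of these data known. Values in every group were given for the catalytic subunits, Psmd14 and Psmd4. Values in the groups compared, or the fold change alone, were given for the leading called members of each role class in each comparison (2 per class, by p in uninjured BALF against media at 6 h and by fold change elsewhere), and for members that ran against the rest. Other lists held assembly factors, other 19S factors, activators, immune subunits, regulators, NRF2 targets, heat shock genes, the segregase Vcp with its cofactors, and ubiquitin genes. Protein sequences were not used here.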

Additional observations from a re-analysis of the deposited data

Results flagged for a closer look

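Each subunit and the summed list were examined for 1 library far from the other 5 in each of the 6 groups, by the gap to the nearest library as a share of the range. Of 210 such groups of 6, 21 had one. Chance gives about 1 in 20 for independent groups. The subunits varied together among libraries, so the count of 21 cannot be set against that rate. Of the 21 flags, 12 were female media 24 h replicate 1, the library with 3.87% mitochondrial counts. It was the lowest of the media 24 h libraries for Psma5 at 24.0 CPM (others 61.8 to 69.6), Psma6 at 66.1 CPM (others 90.7 to 98.0), Psma7 at 55.8 CPM (others 89.7 to 104), Psmb1 at 81.1 CPM (others 127 to 133), Psmb3 at 41.5 CPM (others 74.1 to 91.7) and Psmb4 at 49.2 CPM (others 109 to 133). It was the lowest also for Psmb5 at 21.1 CPM (others 38.0 to 47.3), Psmb6 at 60.0 CPM (others 92.5 to 99.5), Psmd2 at 198 CPM (others 319 to 383), Psmd4 at 72.3 CPM (others 99.9 to 114) and Psmd9 at 19.9 CPM (others 27.7 to 29.8). For Psmb2 it was the highest, at 123 CPM, with the others at 66.5 to 80.7. Without it, 22 subunits in place of 27 were higher in injured BALF than in media at 24 h.

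Female media 6 h replicate 3 was the highest of its group for Psma1 at 111 CPM (others 86.1 to 92.6), Psma2 at 163 CPM (others 125 to 137), Psma5 at 89.0 CPM (others 66.1 to 71.3) and Psma6 at 127 CPM (others 89.3 to 99.5), all alpha subunits. Female uninjured BALF 24 h replicate 2 was the highest of its group for Psmb2 at 87.0 CPM (others 76.5 to 80.4). Female injured BALF 6 h replicate 3 was the highest of its group for Psmb5 at 58.0 CPM (others 45.2 to 49.9). Male uninjured BALF 6 h replicate 1 was the lowest of its group for Psmc6 at 138 CPM (others 159 to 169). Female injured BALF 24 h replicate 3 was the lowest of its group for Psmd8 at 224 CPM (others 315 to 354). Female uninjured BALF 24 h replicate 1 was the lowest of its group for Psmd8 at 206 CPM (others 293 to 344).

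The effect of uninjured BALF against media on Psmd11 differed between the times, by a log2 difference of -0.51 between 24 h and 6 h (adjusted p = 0.038), a call that most single libraries, left out, ended.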

How the results depend on the processing

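Over 11 other settings and each library left out, 0 of the 72 subunit calls changed direction, and 41 held whichever library was left out. The median log2 fold change over the subunits at 24 h against 6 h in injured BALF did change sign, at 0.02 with upper-quartile and -0.04 with TMM scaling. Psma6 held in injured against uninjured BALF at both times under every setting run, and Psmd10 at 24 h. The cause of the shifts was not tested. The stricter threshold lowers the counts by construction. Fitting the compared groups alone moved them both ways. For injured BALF against media the count went from 27 to 12 at 24 h and from 11 to 12 at 6 h. For uninjured BALF against media at 6 h it went from 8 to 10.

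At an adjusted p under 0.01, the subunits called were 1 in injured against uninjured BALF at 6 h, 4 in injured BALF against media at 6 h, 16 in injured BALF against media at 24 h, and 2 in uninjured BALF against media at 6 h. Called lower at 24 h than at 6 h were then 1 in injured BALF, 8 in uninjured BALF and 1 in media, and 0 differed in the uninjured effect between times. With upper-quartile scaling these were 4 for injured BALF against media at 6 h, 3 for uninjured BALF against media at 6 h, 1 higher and 1 lower between the times in injured BALF, 7 lower in uninjured BALF, and 0 for the difference between times. With no low-count filter they were 1 for injured against uninjured BALF at 6 h, 4 and 3 for injured and uninjured BALF against media at 6 h, 1 lower in injured BALF, 8 in uninjured BALF and 1 in media between the times, and 0 for the difference.

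Without the 4 libraries whose description numbers begin differently, injured BALF against media at 6 h gave 7, media between the times 1, and the difference 0. Libraries 1 and 2 of each group were also summed, as though they shared a source. Injured against uninjured BALF at 6 h then gave 1, uninjured BALF against media at 6 h 4, media between the times 0, and the difference 0. Over all genes this setting, which leaves fewer libraries, called 3 higher and 5 lower in media between the times, against 558 and 529 in the main fit. For uninjured BALF against media at 24 h it called 5 higher and 0 lower, against 82 and 56. Fitting the compared groups alone gave 12 for injured BALF against media at 24 h, 1 for media between the times, and 0 for the difference. DESeq2 gave 29 for injured BALF against media at 24 h and 12 for uninjured BALF against media at 6 h.

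With single libraries left out, the counts ran from 1 to 2 for injured against uninjured BALF at 6 h and from 2 to 3 at 24 h, from 5 to 11 for injured BALF against media at 6 h and from 18 to 29 at 24 h, and from 5 to 13 for uninjured BALF against media at 6 h. Lower at 24 h were 1 to 4 in injured BALF, 8 to 15 in uninjured BALF and 1 to 10 in media, and the difference between times gave 0 to 2.

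The labels do not say that a replicate number marks a shared source, so the main fit did not take the numbers as pairs. Over 90 pairs of the same sex and number in different groups, the correlation of deviations from group means ran from -0.68 to 0.83 (median 0.36), and 53 pairs exceeded 0.1. The median was -0.04 over different numbers, and 32 of 36 libraries resembled their own number most. Libraries of the same sex and number thus tended to be alike, for a reason the labels do not state. The p-values of the main fit leave that likeness out. With a block of sex and number, injured against uninjured BALF at 24 h gave 561 higher and 641 lower genes, against 379 and 324 in the main fit. The subunits called higher there were 2 in both fits. With replicate number as a block, 13 subunits in place of 8 were higher in uninjured BALF than in media at 6 h, and 29 in place of 27 in injured BALF against media at 24 h.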

Other observations

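Ubiquitin and protein-folding genes outside the proteasome were read from the other lists. Of 10 heat shock genes, 7 were higher in uninjured BALF than in media at 6 h, where 10.6% of all genes were higher. Among the 7 were the Hsp70 gene Hspa1a at 0.79 ± 0.21 (adjusted p = 0.0095) and its partner Hsph1 at 0.74 ± 0.12 (adjusted p = 0.00011). In injured against uninjured BALF at 6 h, 3 of the 10 (Hspa1a, Hspa1b and Bag3) were lower and 0 higher. Of the 15901 genes tested, 232 were lower and 314 higher there. In injured BALF against media, 4 of the 10 rose and 1 fell at 24 h, beside 1834 and 1940 of all genes. At 6 h 3 rose and 1 fell, beside 2203 and 1808 of all genes. Of 9 genes of the segregase Vcp and its cofactors, Vcp rose in injured BALF against media at 24 h by 0.31 ± 0.08 (adjusted p = 0.0076), and Nsfl1c, Nploc4 and Ubxn4 rose in uninjured BALF against media at 6 h. Of 5 genes for ubiquitin and its activation, 1 rose in injured BALF against media at 24 h, where 11.5% of all genes were higher. It was Uba1, the main ubiquitin-activating enzyme, at 0.24 ± 0.05 (adjusted p = 0.0019). In uninjured BALF against media at 6 h 3 of the 5 rose, among them Uba1 at 0.23 ± 0.05 (adjusted p = 0.0034). In injured BALF against media at 6 h 1 of the 5 rose, where 13.9% of all genes were higher.

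No subunit passed the test of a difference between the sexes in the treatment effect, in edgeR or DESeq2. No gene tested did in edgeR. The test covered injured against uninjured BALF and uninjured BALF against media, each at 24 h and 6 h. Levels in females and males were not themselves compared. In uninjured BALF against media at 24 h, 33 of 34 male effects were nevertheless below the female ones. The median difference was -0.31 on the log2 scale, beside 0.02 over all genes. At an unadjusted p under 0.05 there were 9, beside 734 of the 15901 genes tested. The summed subunits lay at 4052, 4158 and 4030 CPM in male media libraries at 24 h and at 3009, 3893 and 3351 CPM in female ones.

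Psmd8, the subunit with the highest level per length, had single low libraries at 24 h in each treatment: 224 CPM in female injured BALF replicate 3, 206 in female uninjured BALF replicate 1 and 173 in female media replicate 3. At 6 h all of its libraries lay between 278 and 411 CPM.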
